A study of Mus musculus with 13 samples.

Results

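The Hox genes encode homeodomain transcription factors that lie in 4 chromosomal clusters, HoxA, HoxB, HoxC and HoxD, and are numbered by paralog group, 1 at the anterior end of a cluster and 13 at its posterior end. The mouse colon series measured them by single-cell RNA sequencing, and every gene whose name is Hoxa, Hoxb, Hoxc or Hoxd followed by a number was taken, which gave 39 of 32285 genes in the matrix: 11 HoxA, 10 HoxB, 9 HoxC and 9 HoxD genes. In the embryo the order of the genes in a cluster matches the order in which they act along the body axis, with the posterior paralogs acting at the tail end. Adult gut epithelium keeps region-dependent Hox expression, and CDX homeodomain proteins bind near Hox genes in developing gut. Hoxb13, Hoxa13 and Hoxd13 are members of paralog group 13, which patterns hindgut and the most caudal structures, while Hoxb4, Hoxb5 and Hoxb6 belong to the middle of the HoxB cluster.

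The cells came from colons of germ-free C57BL/6J mice and of wild type C57BL/6J mice given antibiotic, with 768 germ-free and 3415 antibiotic cells in the matrix. No antibiotic agent, dose, duration, age or number of mice is given in the sources used here, and the untreated control mice that the series' design mentions were not analysed here. Epithelial cells of each condition were pooled, sorted as equal parts EPCAM+ CD44+ CD45- (proliferative) and EPCAM+ CD44- CD45- (differentiated) cells, and sequenced with a 10x 3' kit, so the mix of cell types was partly set by the sort. Germ-free libraries were labelled batch 2 and antibiotic libraries batch 1, and the effects of condition and batch cannot be told apart.

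Cell names carried a number that split the germ-free cells into set 3 (306 cells) and set 4 (462 cells) and the antibiotic cells into sets 1, 2 and 3 (832, 1149 and 1434 cells). The labels do not tie these numbers to libraries or mice, and the germ-free ones match no library number there, so what the sets stand for is unknown and they are used only as parts of a pool. Germ-free cells summed to 3100880 UMI (unique transcript molecules) and antibiotic cells to 36530277 UMI, and germ-free set 3 held 403007 of these with a median of 1045 UMI per cell. The antibiotic sets shared cell barcodes: 315 between sets 1 and 2, 501 between sets 2 and 3 and 48 between sets 1 and 3, and no barcode was shared between the germ-free sets. Cells with a barcode in both set 1 and set 2 had 15.9 times as many UMI in set 1 (median), and those in both set 2 and set 3 had 9.73 times as many in set 2. The antibiotic sets are therefore not independent samples, and all cells were used unless a value is said to keep 1 cell per barcode (2578 antibiotic cells). Each condition was 1 pool of cells, so no difference was tested. Levels are UMI per 1000000 UMI (CPM) of summed cells, ranges after a value are 95% intervals for counting error only, and in such sums fewer cells of a type and less RNA per cell cannot be told apart. Counts were of 3' tags and were not divided by length, so levels are compared between cells for 1 gene and only loosely between genes. Markers of non-epithelial cells were near 0: fibroblast, smooth muscle, endothelial, T cell, B and plasma cell, myeloid and glial lists each summed to at most 4.96 CPM in any of the 5 sets, and the endothelial list reached 10.8 CPM in distal and 1.68 CPM in proximal germ-free cells, its part in the results being not tested.

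Of the 39 Hox genes, 28 had at least 1 UMI and 16 had at least 100 UMI and are called measured below: Hoxa3, Hoxa5, Hoxa7, Hoxa9, Hoxa10 and Hoxa13, Hoxb3 to Hoxb9 and Hoxb13, and Hoxd11 and Hoxd13. HoxB held 9174 of the 14316 Hox UMI, HoxA 4094 and HoxD 1048. All 9 HoxC genes, Hoxb1 and Hoxd1 had 0 UMI, which allows a level of up to 0.0757 CPM for each. The other 12 members had at most 93 UMI each (Hoxd10) and 390 UMI together. Hoxb13 had the highest count, 3260 UMI, followed by Hoxb9 (2304 UMI) and Hoxb6 (1712 UMI), and Hoxb8 had the lowest count of the measured members, 200 UMI. On mm10 Hoxb13 lies at chr11:96194316-96197447, Hoxb9 at chr11:96271457-96276595 and Hoxb6 at chr11:96292476-96301569, all on the plus strand, with Hoxb13 at the posterior end of the cluster. Hoxd13 lies at chr2:74668310-74671599 on the plus strand and Hoxa13 at chr6:52257694-52260880 on the minus strand. Some members overlap other genes: Hoxa3 spans Hoxa4, Hoxa5 and Hoxa6 and overlaps the antisense gene Hoxaas3, which had 375 UMI, and Hoxa11 (16 UMI) overlaps the antisense gene Hoxa11os (2046 UMI). The strand setting of the counting is not stated, so reads of such pairs may not be separated.

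The promoters of 4 members are shown because they stand on both sides of the regional contrast described next. In antibiotic cells Hoxd13 and Hoxa13 were higher in distal cells, and Hoxb8 and Hoxb4 were lower. In germ-free cells the distal over proximal ratios of Hoxb8 (0.706, 0.197 to 2.11) and Hoxb4 (0.306, 0.0333 to 1.37) had intervals that held 1. Each promoter is the 250 bases before the annotated start in RefSeq (GRCm38.p6), 5′ to 3′ on the gene's strand, in lower case, with capitals marking TTTAT or its reverse complement ATAAA, the core of sites bound by CDX-type homeodomain proteins.
Hoxd13 (chr2:74667975-74668224, plus strand): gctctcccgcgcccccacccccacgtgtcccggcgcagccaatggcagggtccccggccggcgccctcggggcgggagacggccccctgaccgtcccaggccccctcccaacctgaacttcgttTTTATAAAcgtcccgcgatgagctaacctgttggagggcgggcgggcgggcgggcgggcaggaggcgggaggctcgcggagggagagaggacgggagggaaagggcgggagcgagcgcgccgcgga
Hoxa13 (chr6:52260881-52261130, minus strand): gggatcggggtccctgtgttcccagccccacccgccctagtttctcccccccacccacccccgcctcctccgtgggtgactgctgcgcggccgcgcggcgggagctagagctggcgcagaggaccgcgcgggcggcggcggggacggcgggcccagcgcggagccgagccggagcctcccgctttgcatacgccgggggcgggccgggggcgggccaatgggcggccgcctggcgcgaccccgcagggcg
Hoxb8 (chr11:96281655-96281904, plus strand): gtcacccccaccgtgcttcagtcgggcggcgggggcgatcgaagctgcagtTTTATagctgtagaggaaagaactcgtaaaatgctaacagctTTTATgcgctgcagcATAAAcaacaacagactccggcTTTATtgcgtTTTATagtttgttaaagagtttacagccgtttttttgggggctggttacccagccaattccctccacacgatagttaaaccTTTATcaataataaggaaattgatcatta
Hoxb4 (chr11:96318017-96318266, plus strand): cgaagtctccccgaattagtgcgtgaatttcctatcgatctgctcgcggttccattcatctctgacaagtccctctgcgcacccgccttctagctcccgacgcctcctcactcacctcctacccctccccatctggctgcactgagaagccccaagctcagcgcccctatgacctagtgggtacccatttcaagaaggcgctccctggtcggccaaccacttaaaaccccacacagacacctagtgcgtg
The Hoxb8 window held 6 copies, 5 TTTAT and 1 ATAAA, the Hoxd13 window held 1 of each, overlapping, and the Hoxa13 and Hoxb4 windows held 0. At least 1 copy was present in 37.3% of 32851 promoter windows of this length, and 6 or more copies in 0.393%. The RefSeq table matched 22 of the 39 members, 10 of them measured, and 9 of their 24 windows (37.5%) held the letters, close to the share of all windows. A match is only a run of letters and says nothing of binding in these cells.

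Distal cells had higher levels of the group 13 Hox genes in both conditions, and in antibiotic colons Hoxb3 to Hoxb8 were each at most 3.51 CPM there. Distal cells were those with a UMI of Slc37a2 or Atp12a, a pump gene of distal colon, and proximal cells those with a UMI of Cyp2c55 and none of Slc37a2, so the rule used no Hox gene. After the cells that met both rules were left out (7 germ-free, 65 antibiotic), there were 112 distal and 254 proximal germ-free cells, and 348 distal and 1821 proximal antibiotic cells. Paralog group 13 summed to 195 CPM in distal and 54.7 CPM in proximal germ-free cells, and to 249 CPM in distal and 52.4 CPM in proximal antibiotic cells. Hoxb2 to Hoxb8, a group chosen after its values were seen, summed to 49.4 CPM in distal and 128 CPM in proximal germ-free cells, and to 9.66 CPM in distal and 122 CPM in proximal antibiotic cells.

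A member was counted as called where distal and proximal levels differed at least 2-fold on the scale of log2(CPM + 1). In germ-free cells 4 of the 16 measured members were called higher (25%), against 8.29% of 11059 genes with at least 100 UMI, and 3 were called lower (18.8%), against 7.55% of those genes. In antibiotic cells 4 were called higher (25%), against 2.99% of those genes, and 6 lower (37.5%), against 3.74%. The 4 called higher were Hoxa13, Hoxb13, Hoxd11 and Hoxd13 in both conditions. In germ-free cells Hoxa13 and Hoxd11 were not called higher with cells thinned to 1000 UMI or without set 4. Hoxb3, Hoxb4 and Hoxb6 were called lower in distal germ-free cells, and Hoxb3, Hoxb4, Hoxb5, Hoxb6, Hoxb7 and Hoxb8 in distal antibiotic cells. The members' median log2 ratio was 0.01 in germ-free cells, against 0.07 over all genes, and 0.62 in antibiotic cells, against 0.02 over all genes.

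Among the posterior genes, Hoxb13 was at 145 and 135 CPM in distal cells of germ-free sets 3 and 4, against 19.6 and 44.2 CPM in proximal cells of those sets, without overlap. The summed levels of 136 CPM in distal and 42.1 CPM in proximal cells gave a ratio of 3.23 (2.26 to 4.67). In antibiotic sets 1, 2 and 3 it was at 209.7, 245 and 150.5 CPM in distal cells, against 21.0, 44.0 and 41.4 CPM in proximal cells. All 3 distal values were above all 3 proximal values, with a summed ratio of 5.20 (4.76 to 5.69). Hoxd13, the posterior end of HoxD, had 14 UMI in distal and 1 UMI in proximal germ-free cells, a ratio of 25.7 with a wide interval (3.91 to 1087). In the antibiotic sets it was at 24.0, 29.5 and 27.2 CPM in distal cells, against 2.80, 6.15 and 7.22 CPM in proximal cells. Its summed ratio there was 4.66 (3.68 to 5.91) and the sets did not overlap. Hoxa13, at the same end of HoxA, was at 20.6 and 38.4 CPM in distal cells of the germ-free sets, against 19.6 and 11.0 CPM in proximal cells, close in set 3. In that set 3 counts correspond to 61.9 CPM in distal and 29.4 CPM in proximal cells. Both Hoxa13 values and the proximal Hoxb13 value of set 3 lie under these levels. The summed germ-free ratio of Hoxa13 was 3.15 (1.56 to 6.58). In the antibiotic sets it was at 26.2, 23.1 and 26.4 CPM in distal and 6.99, 7.97 and 10.0 CPM in proximal cells, a summed ratio of 2.88 (2.31 to 3.59) with no overlap. Hoxd11, a lower-numbered HoxD gene, had 4 UMI in distal and 2 UMI in proximal germ-free cells (3.67, 0.526 to 40.6) and was at 13.3 CPM in distal and 3.29 CPM in proximal antibiotic cells.

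**Figure D1:**
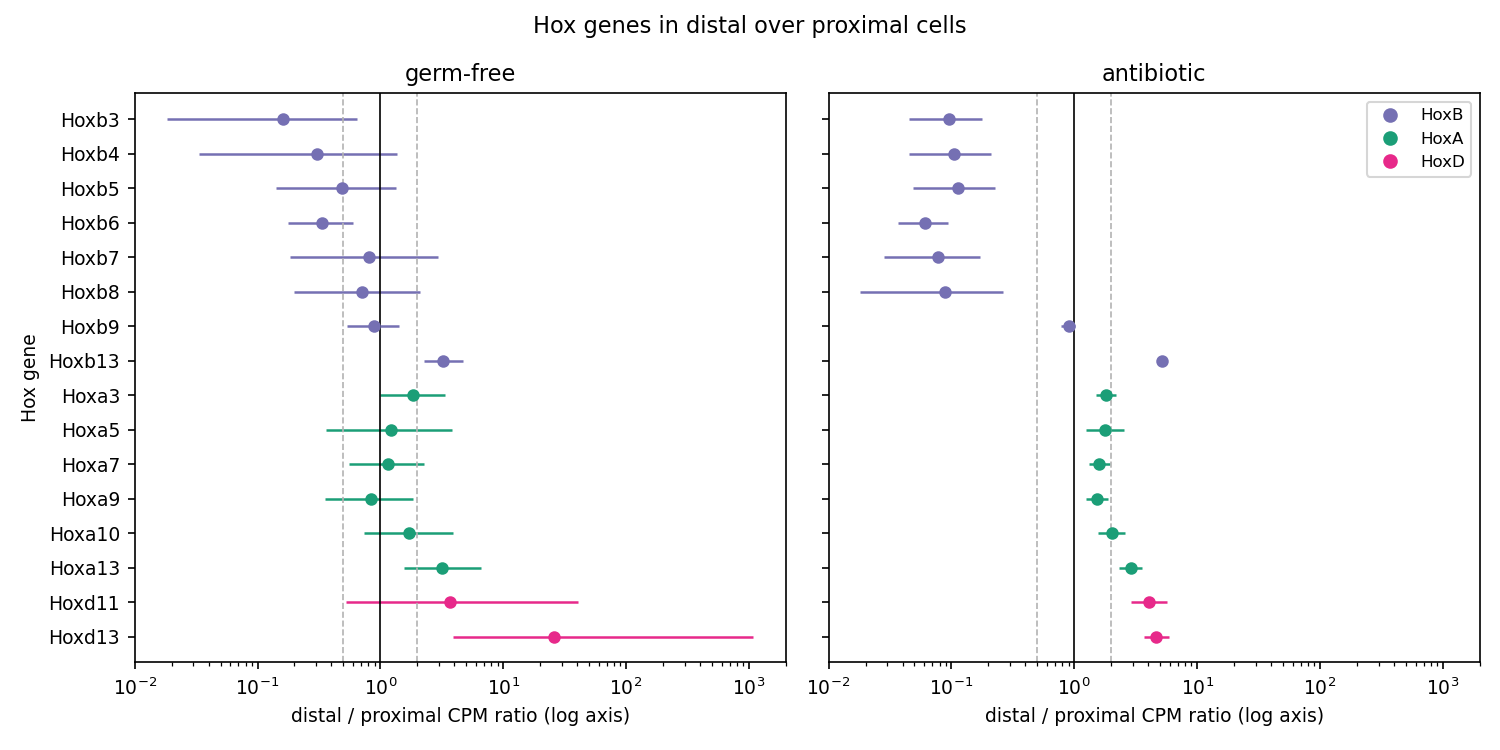
Ratio of CPM in distal over proximal cells (log axis) for the 16 measured Hox genes, by cluster in paralog order from top to bottom, in germ-free cells (left) and antibiotic cells (right); points are ratios of summed cells, bars are 95% intervals for counting error, and dashed lines stand at 0.5 and 2. Hoxb3 to Hoxb8 lie left of 1 in both panels, with Hoxb6 at 0.338 in germ-free and 0.0607 in antibiotic cells, and Hoxb13, Hoxa13, Hoxd11 and Hoxd13 lie right of 2.

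The plot of distal over proximal ratios shows the turn within HoxB, between its posterior end and its middle. In germ-free cells the central HoxB genes summed to lower levels in distal cells. Hoxb6, a central HoxB gene, was at 41.3 and 20 CPM in distal cells of germ-free sets 3 and 4, against 29.4 and 67.2 CPM in proximal cells. Set 3 went the other way, on a distal sum of 48438 UMI over 30 cells, and the pooled level was 2.96-fold lower in distal cells (1.66 to 5.66). Of the 32 distal UMI of Hoxb2 to Hoxb8, 19 came from 9 crypt-like cells among the 112 distal cells. In colonocyte-like cells alone, Hoxb2 to Hoxb8 summed to 8.78 CPM in 75 distal and 118 CPM in 192 proximal germ-free cells, 13.4-fold lower in distal cells (4.47 to 66.3). In antibiotic cells of that class the sum was 10.7 CPM in 218 distal and 92.1 CPM in 829 proximal cells. Over all classes of germ-free cells, Hoxb3 and Hoxb4 rested on 2 distal UMI each, with ratios of 0.160 (0.0182 to 0.646) and 0.306 (0.0333 to 1.37). Without set 4 the germ-free log2 ratio of Hoxb6 was 0.48, and that of Hoxd11 was -3.43. Both then rest on few UMI of set 3, where 3 counts correspond to 61.9 CPM in distal and 29.4 CPM in proximal cells.

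In antibiotic cells the same genes were lower in distal cells in every set. Hoxb6 was at 5.46, 3.17 and 3.11 CPM in distal cells of antibiotic sets 1, 2 and 3, against 63.7, 58.7 and 54.6 CPM in proximal cells. The sets were far apart, and the summed level was 16.5-fold lower in distal cells (10.6 to 27.1). Hoxb7 was 12.8-fold, Hoxb8 11.3-fold (3.79 to 55.5), Hoxb3 10.5-fold, Hoxb4 9.54-fold and Hoxb5 8.85-fold lower in distal antibiotic cells, on 3 to 10 distal UMI each. Hoxb9, the neighbour of Hoxb8 on the posterior side, had a ratio of 0.885 (0.537 to 1.42) in germ-free cells. In the antibiotic sets it was at 54.6, 46.2 and 50.2 CPM in distal cells, against 53.3, 59.1 and 53.0 CPM in proximal cells. These ranges overlapped and the ratio was 0.898 (0.786 to 1.02).

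Summed over all classes, HoxB genes of groups 3, 5 and 7 were lower in distal antibiotic cells while their HoxA partners were slightly higher, below 2-fold, and the HoxA side depended on the class mix. Hoxa3 was at 29.5 CPM in distal and 16.3 CPM in proximal antibiotic cells (ratio 1.81, 1.5 to 2.18), while Hoxb3 was at 1.76 CPM in distal and 18.5 CPM in proximal cells. Hoxa5 was at 8.43 CPM in distal and 4.73 CPM in proximal cells (1.78, 1.24 to 2.53), while Hoxb5 was at 1.41 CPM in distal and 12.4 CPM in proximal cells. Hoxa7 was at 24.8 CPM in distal and 15.5 CPM in proximal cells (1.60, 1.31 to 1.95), while Hoxb7 was at 1.05 CPM in distal and 13.5 CPM in proximal cells. Within crypt-like cells the distal over proximal ratios were 0.857 (0.635 to 1.15) for Hoxa3, 0.870 (0.492 to 1.49) for Hoxa5 and 0.986 (0.732 to 1.32) for Hoxa7, with intervals across 1. In colonocyte-like cells they were 2.98 (2.22 to 3.97), 1.79 (0.907 to 3.38) and 1.47 (1.03 to 2.08). With classes weighted equally the log2 ratios turned to -0.46, -0.04 and -0.22, and that of Hoxa3 was -0.30 with cells thinned to 1000 UMI. Hoxa5 was also level in antibiotic set 3, at 5.05 CPM in distal and 5.16 CPM in proximal cells. None of Hoxa3, Hoxa5, Hoxa7, Hoxa9 and Hoxa10 passed the 2-fold limit, and Hoxa10 came nearest at 17.4 CPM in distal and 8.59 CPM in proximal cells. Paralog group sums therefore mix HoxA and HoxB genes with unlike ratios: group 3 was at 31.3 CPM in distal and 35.5 CPM in proximal antibiotic cells and group 7 at 25.8 CPM in distal and 29 CPM in proximal cells. Groups 4, 6 and 8, in which HoxB genes held most counts, were at 2.28, 5.44 and 0.527 CPM in distal and 15.8, 58.8 and 6.35 CPM in proximal antibiotic cells. Groups 9, 10 and 11 were at 73.9, 22.1 and 13.5 CPM in distal and 70.8, 9.55 and 3.59 CPM in proximal antibiotic cells. Over the 16 measured members, Spearman's rho between paralog number and log2 ratio was 0.71 for germ-free and 0.68 for antibiotic cells. Within the 8 HoxB members it was 0.90 in germ-free and 0.64 in antibiotic cells, and within the 6 HoxA members 0.20 in germ-free and 0.43 in antibiotic cells. These describe genes of the same libraries and are not replicates.

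The mix of classes and the depth moved with region. Crypt-like cells were 8.04% of distal and 5.12% of proximal germ-free cells, and 22.4% of distal and 12.1% of proximal antibiotic cells. Goblet markers (12 genes) summed to 5349 CPM in distal and 1314 CPM in proximal germ-free cells, and to 2284 CPM in distal and 679 CPM in proximal antibiotic cells. The median depth was 4761 UMI in distal and 3623.5 UMI in proximal germ-free cells, and 13975 UMI in distal and 9035 UMI in proximal antibiotic cells. With classes weighted equally, the germ-free log2 ratio was 2.20 for Hoxb13, against 1.67 as summed, 3.92 against 3.62 for Hoxd13 and -1.91 against -1.52 for Hoxb6. These weights give 4 proximal goblet-like germ-free cells, with 0 UMI of Hoxb13 and of Hoxd13, a weight equal to that of the other classes. The antibiotic log2 ratio so weighted was 1.06 for Hoxb13, against 2.35 as summed, 1.31 against 2.05 for Hoxd13, -2.35 against -3.71 for Hoxb6 and 0.02 against 0.59 for Hoxa9. For Hoxa13 it was 0.34, against 1.43 as summed, and for Hoxb8 -0.66, against -2.19, so neither was called with equal weights, which give the 12 distal goblet-like cells a weight equal to that of the other classes. With 1 cell per barcode the antibiotic log2 ratios were 2.33 for Hoxb13, 1.99 for Hoxd13 and -3.68 for Hoxb6, and with shared barcodes left out 2.06, 1.93 and -3.85. The regional rule was compared with other genes known from distal and proximal colon: of 11 measured distal colon genes 7 were called higher and 2 lower in distal germ-free cells, and 8 higher and 0 lower in distal antibiotic cells. Of 14 proximal colon genes 7 were called higher and 4 lower in distal germ-free cells, and 6 higher and 5 lower in distal antibiotic cells. All counts but the 0 are larger shares than those of all genes given above, and the distal list went mostly with the rule, while more of the proximal list was higher than lower in distal cells.

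In antibiotic colonocyte-like cells every member called over all antibiotic cells differed at least 2-fold in the same direction, while in antibiotic crypt-like cells, of the 4 posterior genes, only Hoxb13 passed 2-fold. Germ-free colonocyte-like cells had Hoxb13 at 164 CPM in distal and 32.7 CPM in proximal cells (5.01, 3.13 to 8.19). In antibiotic colonocyte-like cells Hoxb13 was at 92.7 CPM in distal and 9.70 CPM in proximal cells, a ratio of 9.55 (7.70 to 11.9). Hoxd13 was at 21.3 CPM in distal and 1.19 CPM in proximal cells of this class (17.9, 10.1 to 33.7), and Hoxb6 at 3.55 CPM in distal and 41.0 CPM in proximal cells. Hoxa13 had a ratio of 3.33 (2.44 to 4.55) there and Hoxd11 one of 25.2 (9.71 to 82.9). In antibiotic crypt-like cells the posterior contrast was smaller: Hoxb13 was at 401 CPM in 78 distal and 177 CPM in 220 proximal cells (2.26, 2.03 to 2.52), and Hoxd13 at 41.3 CPM in distal and 29.5 CPM in proximal cells (1.40, 1.02 to 1.90). Hoxa13 was at 28.6 CPM in distal and 21.8 CPM in proximal cells of that class (1.31, 0.901 to 1.89) and Hoxd11 at 22.6 CPM in distal and 15.9 CPM in proximal cells (1.42, 0.919 to 2.16), and both intervals hold 1. With 1 cell per barcode the crypt-like ratios were 2.26 for Hoxb13, 1.35 (0.981 to 1.84) for Hoxd13 and 1.33 (0.916 to 1.93) for Hoxa13, and the colonocyte-like ratios were 9.68 for Hoxb13 and 17.4 for Hoxd13. Hoxb6 in the crypt-like class had 1 UMI in distal and 69 UMI in proximal cells, 37.0-fold lower in distal cells with an interval of 6.43 to 1483. Crypt-like cells called proximal still had Hoxb13 at 177 CPM, or 34.4 CPM with cluster 3, described below, left out. The crypt-like ratios given here include cluster 3. Among distal antibiotic cells Hoxb13 was at least 2-fold higher in crypt-like than in colonocyte-like cells with cluster 3 kept, but not with it left out. The difference between classes in the size of the regional ratio was not tested. Goblet-like cells were too few for a regional value in germ-free colons (16 distal, 4 proximal) and in antibiotic distal cells (12).

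Hox levels also followed the amount of Cyp2c55, a cytochrome P450 gene of proximal colon, among cells with at least 1000 UMI. Cells were put into 4 bins, those with no Cyp2c55 UMI (361 germ-free and 988 antibiotic cells) and 3 near-equal bins of rising Cyp2c55 (88 cells each in germ-free, and 635, 634 and 634 in antibiotic colons). Germ-free Hoxb13 was at 149, 116, 25.9 and 22.8 CPM in these bins and antibiotic Hoxb13 at 149, 143, 12.2 and 10.0 CPM, so the drop lay between the lower and the middle bin in both conditions. Hoxb6 was at 39.0, 52.0, 75.7 and 45.6 CPM in germ-free and 23.7, 25.8, 58.4 and 65.3 CPM in antibiotic cells, highest in the middle germ-free bin and the uppermost antibiotic bin. Hoxd13 was at 30.1 and 15.1 CPM in the first pair of germ-free bins and had 0 UMI in the others, which allows up to 5.98 CPM in the middle and 6.84 CPM in the uppermost bin, and it was at 27.6, 22.0, 1.79 and 0.588 CPM in the antibiotic bins. Hoxb9 was at 78.7, 56.8, 55.5 and 45.0 CPM in the antibiotic bins. With 1 cell per barcode antibiotic Hoxb13 was at 148, 149, 13.5 and 9.93 CPM and Hoxb6 at 24.1, 25.7, 55.9 and 65.5 CPM in bins made the same way. Median depth was 5723.5 UMI in antibiotic cells without Cyp2c55 and 11087 UMI in the lower bin, and the part of depth and class mix was not tested.

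**Figure D2:**
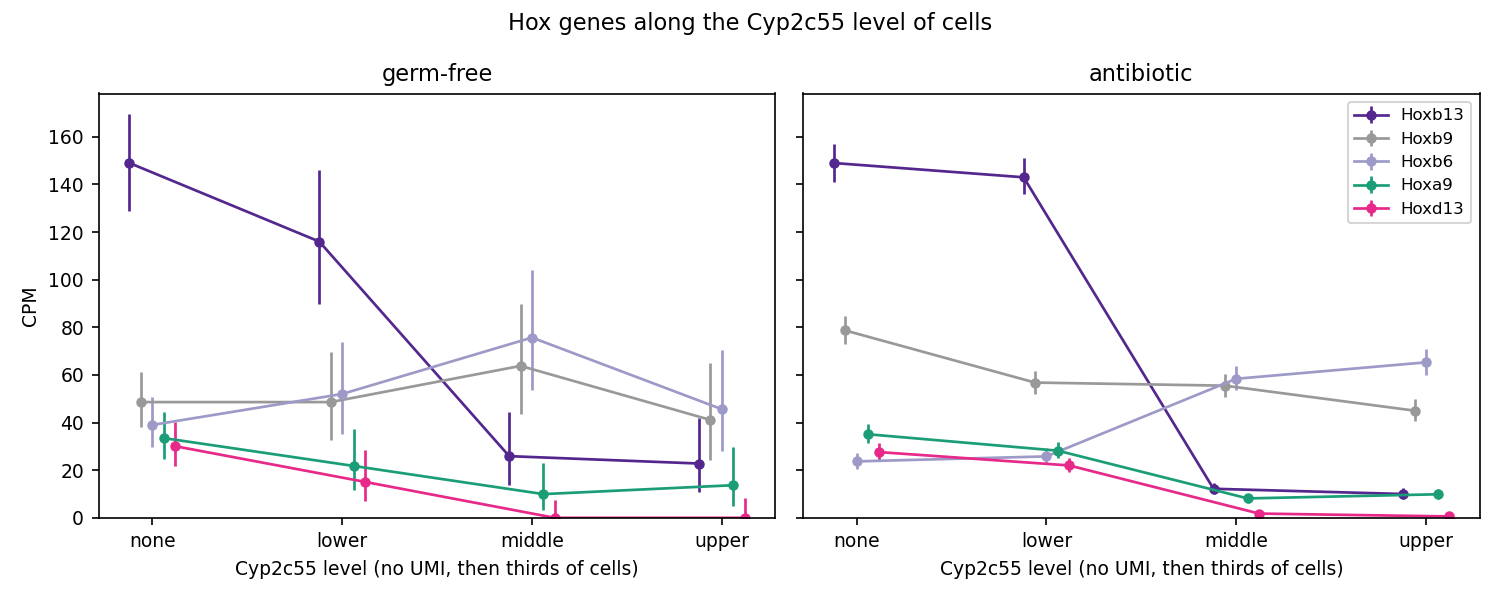
CPM of Hoxb13, Hoxb9, Hoxb6, Hoxa9 and Hoxd13 in cells with no Cyp2c55 UMI and in 3 bins of rising Cyp2c55, in germ-free and antibiotic cells; bars are 95% Poisson intervals. Antibiotic Hoxb13 stood at 143 CPM in the lower bin and 12.2 CPM in the middle bin, while Hoxb6 stood at 25.8 and 58.4 CPM there.

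Hoxb13 and Hoxb6 were seldom found in the same cell. Cells with at least 5000 UMI were thinned to 5000 UMI, which left 206 germ-free and 1974 antibiotic cells. Hoxb6 was detected in 1.64% (0.0415 to 8.80, exact binomial) of 61 germ-free cells with a Hoxb13 UMI, against 20.7% (14.4 to 28.2) of 145 without one. In antibiotic cells it was detected in 2.28% (0.989 to 4.44) of 351 cells with Hoxb13, against 20.4% (18.5 to 22.4) of 1623 without. The intervals did not overlap in either condition. Without thinning the shares were 4.05% of cells with Hoxb13 and 33.3% of cells without it in germ-free colons, and 5.90% of cells with and 39.5% of cells without it in antibiotic colons. With 1 cell per barcode Hoxb6 was detected in 2.03% (0.822 to 4.15) of antibiotic cells with Hoxb13 and 20.5% (18.6 to 22.6) of those without. Hoxb9, in thinned cells, was detected in 14.8% (6.98 to 26.2) of germ-free cells with Hoxb13 and 25.5% (18.6 to 33.4) of those without, and in 23.4% of antibiotic cells with Hoxb13 and 25.1% of those without, with overlapping intervals in both conditions. Without thinning Hoxb9 was found in 29.7% of germ-free cells with Hoxb13 and 40.2% of those without, but in 54.6% (50.5 to 58.7) of antibiotic cells with it and 46.3% (43.6 to 48.9) of those without, so its order changed with depth. Hoxd13 was detected in 11.5% (4.74 to 22.2) of thinned germ-free cells with Hoxb13, against 6.21% (2.88 to 11.5) of those without, where the intervals overlap. In antibiotic cells it was detected in 9.69% (6.80 to 13.3) of cells with Hoxb13, against 3.82% (2.94 to 4.87) of those without. Free RNA in droplets can place UMIs in cells that do not express a gene, and no empty droplets were used here, so its part in these shares was not tested. Sums over the 5 clusters with the least Hoxb13 held it at 1.19 to 3.07 CPM.

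Crypt-like cells, named from stem and cycling markers, had higher summed levels of HoxA genes than colonocyte-like cells, and the higher Hoxb13 of the class lay mostly in 1 cluster. A member was called here where the log2 ratio averaged over both conditions passed 2-fold and had the same sign in each. Of the 16 measured members 7 were called higher (43.8%), against 20.3% of 11059 genes, and 0 were called lower, against 6.41%. The 7 were Hoxa5, Hoxa7, Hoxa9, Hoxa10, Hoxb13, Hoxd11 and Hoxd13. Hoxb13 was at 148 and 175 CPM in crypt-like cells of germ-free sets 3 and 4, against 135 and 78.8 CPM in colonocyte-like cells, closer in set 3, with a summed ratio of 2.02 (1.58 to 2.59). In antibiotic sets 1, 2 and 3 it was at 162, 235 and 201 CPM in crypt-like cells, against 35.0, 29.7 and 24.8 CPM in colonocyte-like cells, a summed ratio of 7.26 (6.56 to 8.05) with no overlap. Cluster 3 held 1854 of the 2095 crypt-like Hoxb13 UMI (88.5%) in 314 of the 995 crypt-like cells, at 338 CPM, against 18.1, 68.6 and 55.5 CPM in the other crypt-like clusters, 4, 10 and 14. None of the class's own markers was among the 10 leading genes of cluster 3. At Leiden resolution 0.5 a cluster of 521 cells shared some leading genes with it, such as Sycn, Wfdc2, Cela1 and Fxyd4. That larger cluster also had Atp12a among its leading genes and stays unnamed. With cluster 3 left out, a choice made after seeing the data, Hoxb13 was lower in germ-free crypt-like cells, at 29 CPM against 84.7 CPM in colonocyte-like cells (0.342, 0.160 to 0.648), and 51.7 CPM against 28.4 CPM in antibiotic cells (1.82, 1.55 to 2.14). The members called higher were then 8: Hoxa3, Hoxa5, Hoxa7, Hoxa9, Hoxa10, Hoxb6, Hoxb8 and Hoxb9, of which 4 were among the 7 with cluster 3. The share of all genes was not worked out without cluster 3, so this count has no background beside it. With cluster 3 included, as in the values that follow, Hoxd13 had ratios of 1.85 (0.998 to 3.39) in germ-free and 5.59 (4.42 to 7.12) in antibiotic cells. The HoxA sum was at 189 CPM in crypt-like and 111 CPM in colonocyte-like germ-free cells (1.70, 1.35 to 2.13) and at 194 CPM in crypt-like and 61.3 CPM in colonocyte-like antibiotic cells (3.16, 2.92 to 3.41). The classes also differed in region: Cyp2c55 was detected in 12.2% of crypt-like and 49.8% of colonocyte-like germ-free cells, and in 30.5% of crypt-like and 85.5% of colonocyte-like antibiotic cells. Among distal antibiotic cells, 5 members were at least 2-fold higher in crypt-like than in colonocyte-like cells and 3 lower, and among proximal ones 9 were higher and 4 lower. Shares of all genes were not worked out within a region, so whether these counts are particular to Hox genes is not known. Hoxa3 was at 38.0 CPM in crypt-like and 27.5 CPM in colonocyte-like distal antibiotic cells (1.38, 0.992 to 1.92) and at 44.3 CPM in crypt-like and 9.22 CPM in colonocyte-like proximal ones (4.8, 3.74 to 6.17). The mean log2 ratio of Hoxb13 was 1.91 with all cells, 1.92 with 1 cell per barcode and 1.84 with shared barcodes left out. Hoxb7 had a germ-free ratio of 1.59 (0.554 to 4.33), and in antibiotic colons it was 5.28-fold lower in crypt-like cells, at 1.99 CPM against 10.5 CPM in colonocyte-like cells. Colonocyte-like cells lay mainly in cluster 7 (262 cells) and cluster 1 (146 cells) in germ-free colons and mainly in clusters 0, 1 and 11 in antibiotic colons, so this class was made up of different clusters in the 2 conditions.

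In goblet-like cells, the mucus-making class, Hoxb13 was higher than in colonocyte-like cells in antibiotic colons but near the same level in germ-free colons; the difference between conditions was not tested. Of the 16 measured members 2 were called higher (12.5%), Hoxa5 and Hoxb13, against 17.8% of genes, and 0 lower, against 10.3%, so the share is near the background. Hoxb13 was at 88.3 CPM in goblet-like and 84.7 CPM in colonocyte-like germ-free cells (1.04, 0.677 to 1.56). In the antibiotic sets it was at 134, 115 and 127 CPM in goblet-like cells, against 35.0, 29.7 and 24.8 CPM in colonocyte-like cells (4.40, 3.77 to 5.14). The classes also differed in region: Cyp2c55 was detected in 8.70% of goblet-like and 49.8% of colonocyte-like germ-free cells, and in 22.7% and 85.5% of antibiotic ones. Among proximal antibiotic cells Hoxb13 was at 136 CPM in 51 goblet-like and 9.70 CPM in 829 colonocyte-like cells. The part of region was not tested. Hoxa3 was at 20.6 CPM in goblet-like and 31.5 CPM in colonocyte-like germ-free cells, and at 36.0 CPM in goblet-like and 13.5 CPM in colonocyte-like antibiotic cells. Hoxa13 was at 5.89 CPM in goblet-like and 16.1 CPM in colonocyte-like germ-free cells and at 6.32 CPM in goblet-like and 10.8 CPM in colonocyte-like antibiotic cells. It had the lowest ratio of the 16, a mean log2 of -1.0 that just missed the 2-fold limit. The mean log2 ratio of Hoxb13 was 1.08 with all cells, 1.09 with 1 cell per barcode and 1.17 with shared barcodes left out. Only 92 germ-free goblet-like cells were present, and the count changed with most settings.

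**Figure D3:**
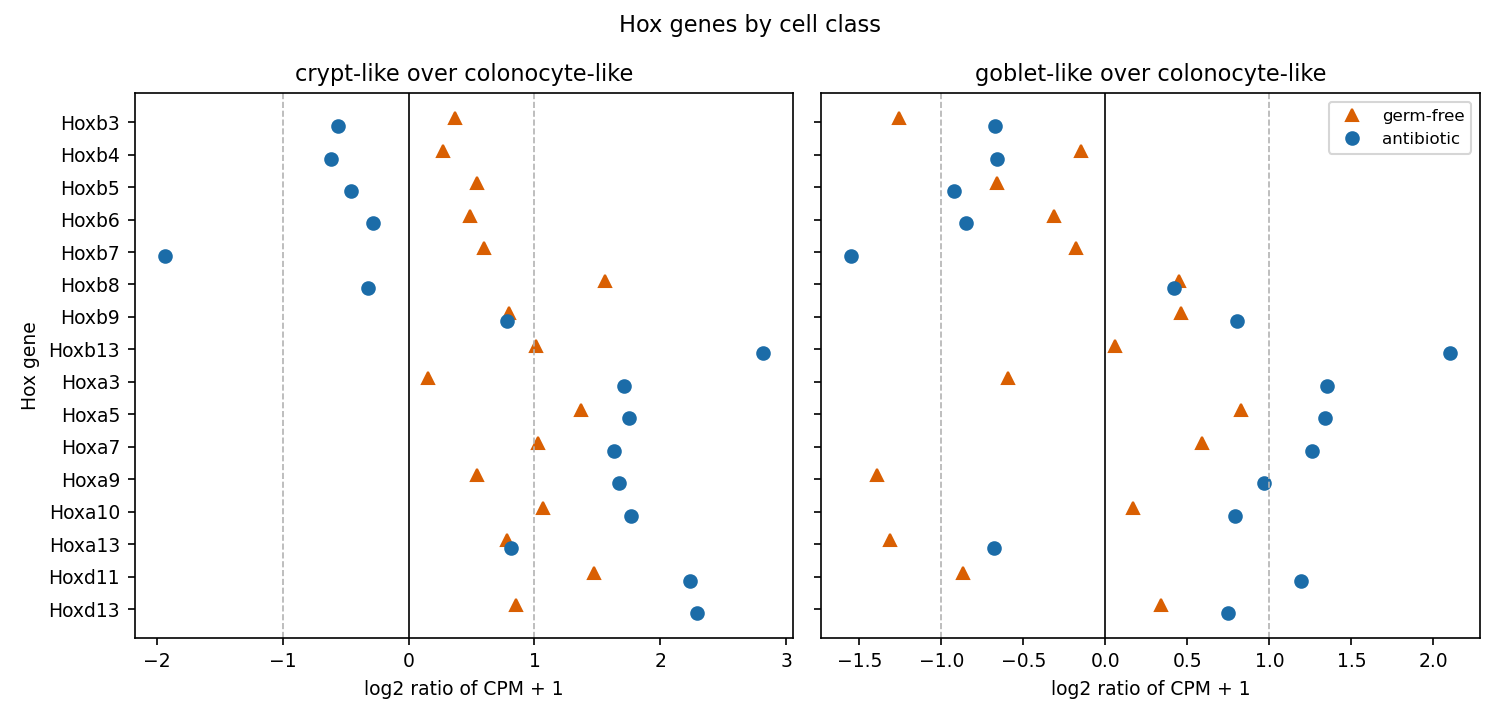
log2 ratio of CPM + 1 of each measured Hox gene in crypt-like over colonocyte-like and goblet-like over colonocyte-like cells, germ-free as triangles and antibiotic as circles, with dashed lines at 1 and -1. Antibiotic crypt-like cells lie above 1 for most HoxA and HoxD members and Hoxb13, and below -1 for Hoxb7.

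Across 16 clusters of at least 100 cells the HoxB genes split into the same sides. Cluster 3, crypt-like, had the highest Hoxb13, at 338 CPM, with Hoxb6 at 2.74 CPM. Cluster 4, also crypt-like, had Hoxb13 at 18.1 CPM and Hoxb6 at 72.4 CPM, so both states occurred in crypt-like cells. Cluster 6, which stays unnamed and in which 94.1% of cells met the proximal rule, had the highest Hoxb6, at 169 CPM, with Hoxb13 at 1.93 CPM. Cluster 1, colonocyte-like with 55.2% of cells distal, had Hoxd13 at 40.6 CPM and Hoxb6 at 2.19 CPM. Cluster 0, colonocyte-like with 72.6% of cells proximal, was unlike the other proximal colonocyte clusters: Hoxb13 was at 40.9 CPM and Hoxb6 at 10.0 CPM, while Hoxd13 was at 0.896 CPM. Clusters 11, 12 and 15, over 94% proximal, had Hoxa3 at 1.54, 1.75 and 1.19 CPM, against 93.9 CPM in crypt-like cluster 14. Hoxb9 ranged only from 25.4 to 106 CPM over the 16 clusters. With 1 cell per barcode cluster 3 had Hoxb13 at 339.9 CPM, cluster 4 at 15.3 CPM and cluster 0 at 40.4 CPM, and cluster 6 had Hoxb6 at 167 CPM. Pearson's r of log2(CPM + 1) over the 16 clusters was 0.97 for Hoxd13 and Hoxd11, 0.96 for Hoxa9 and Hoxa7, 0.85 for Hoxa9 and Hoxb13, 0.24 for Hoxb13 and Hoxb9 and -0.71 for Hoxb13 and Hoxb6. The clusters share libraries and were built from these cells' genes, so these are descriptions. In 7 of the named clusters, numbers 1, 3, 4, 7, 11, 12 and 14, none of the class's own markers was among the 10 leading genes.

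**Figure D4:**
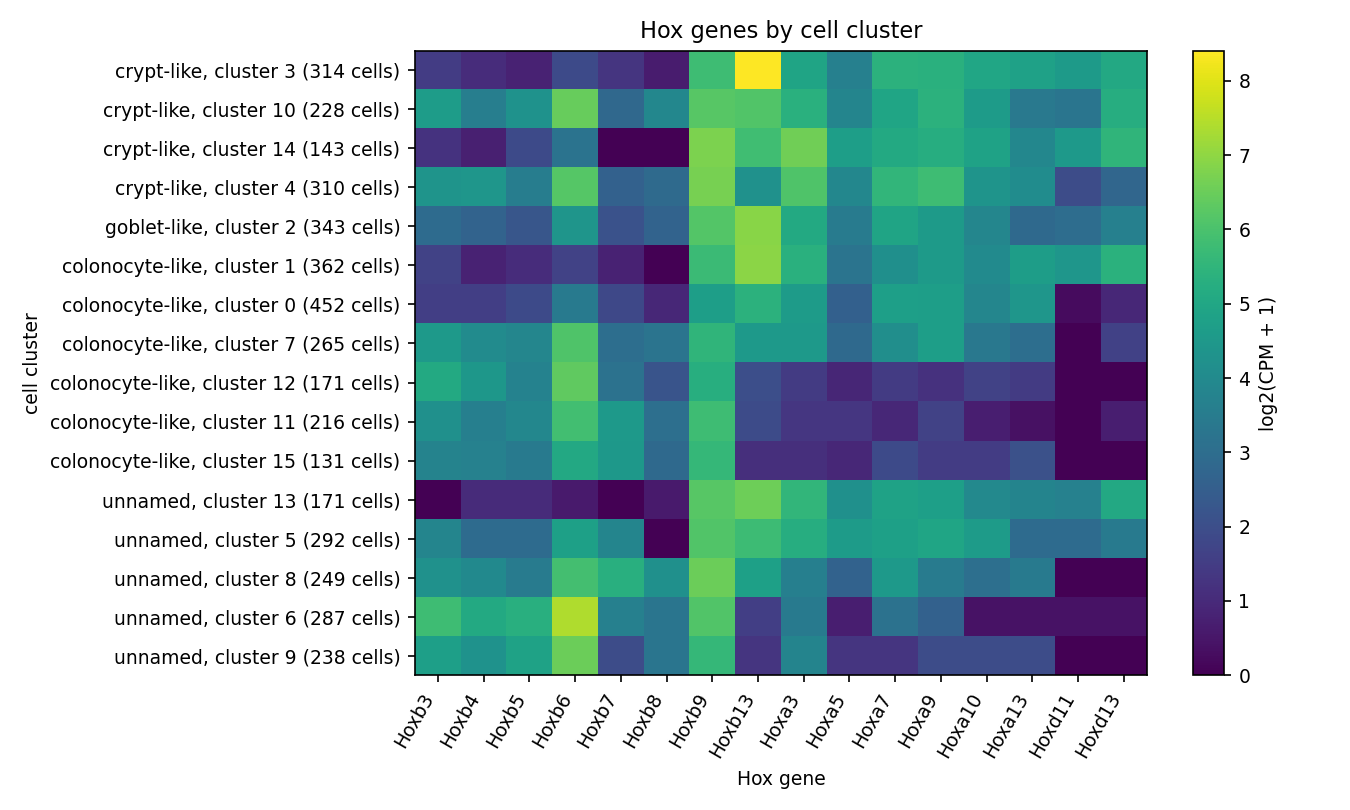
Heat map of log2(CPM + 1) of the 16 measured Hox genes in the 16 clusters of at least 100 cells, labelled by number and class. Hoxb13 is highest in cluster 3 (338 CPM) and Hoxb6 in cluster 6 (169 CPM), and Hoxb9 is present in every cluster shown.

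Between conditions no measured Hox gene passed the 2-fold rule with cell sets apart: 0 of 16 were called higher, against 1.77% of 11059 genes, and 0 lower, against 2.56%. The 39 genes summed to 415 CPM in germ-free and 357 CPM in antibiotic cells. Both germ-free sets lay above all 3 antibiotic sets for 8 members, Hoxa3, Hoxa5, Hoxa7, Hoxa9, Hoxa10, Hoxa13, Hoxb13 and Hoxd13, which is 50.0% against 24.8% of all genes. They lay below for Hoxb9, 6.25% against 23.9%. These counts moved with the processing: 2 members lay above with classes weighted equally, 3 with means of per-cell CPM and 5 with thinned cells, and 0 to 7 lay below, 7 of them without germ-free set 4. The log2 ratios of Hoxa3, Hoxa5 and Hoxa9 were 0.31, 0.36 and 0.23 as summed, with lowest values of -0.13, -0.83 and -0.17 over the alternatives. The median log2 ratio of the members was 0.27, with a range of -0.30 to 0.97, against 0.03 over all genes.

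Hoxb13 was at 122 and 100.4 CPM in germ-free sets 3 and 4, against 69.5, 96.7 and 73.9 CPM in antibiotic sets 1, 2 and 3, and antibiotic set 2 came close to germ-free set 4. Its summed ratio was 1.28 (1.14 to 1.44), a log2 ratio of 0.35, or 0.36 with 1 cell per barcode and 0.61 with shared barcodes left out. Hoxd13 was at 32.3 and 15.9 CPM in the germ-free sets, against 10.2, 14.1 and 14 CPM in the antibiotic sets, with a ratio of 1.37 (1.02 to 1.80). Hoxb9 was at 37.2 and 50.8 CPM in the germ-free sets, against 62.9, 60 and 56.2 CPM in the antibiotic sets, a ratio of 0.832. Hoxb6 was at 27.3 and 50.8 CPM in the germ-free sets, against 53.0, 41.6 and 38.9 CPM in the antibiotic sets, which overlap. Hoxb8 had the largest ratio, 2.16 (1.42 to 3.18), but had 0 UMI in germ-free set 3, which allows up to 7.44 CPM, and 11.5 CPM in set 4, against 5.35, 5.05 and 3.98 CPM in the antibiotic sets. The central HoxB genes were low in germ-free set 3: Hoxb2 to Hoxb8 summed to 39.7 CPM there and 109 CPM in set 4, against 110.4, 88.7 and 82.1 CPM in the antibiotic sets.

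**Figure D5:**
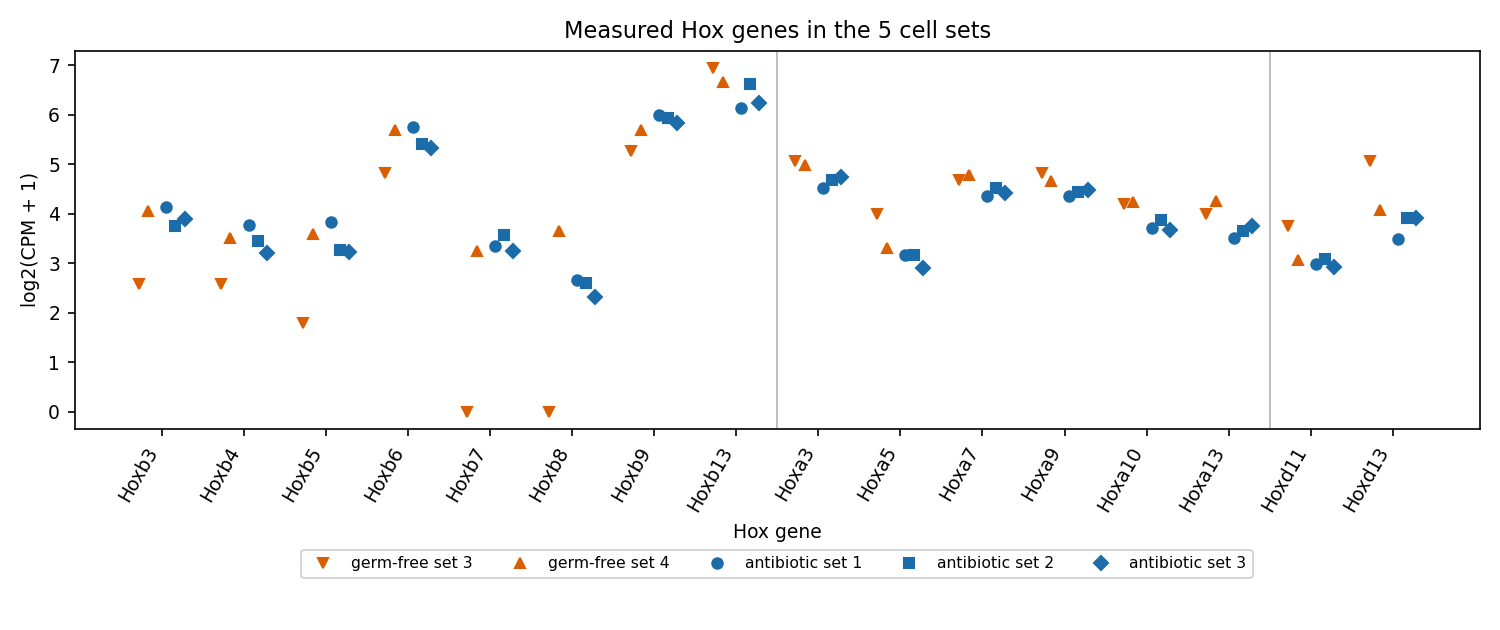
log2(CPM + 1) of the 16 measured Hox genes in each of the 5 cell sets, germ-free sets in orange to the left of antibiotic sets in blue for each gene, with vertical lines between HoxB, HoxA and HoxD. Germ-free set 3 lies low for Hoxb3 to Hoxb8, with Hoxb7 and Hoxb8 at 0, and both germ-free sets lie above the antibiotic sets for all 6 HoxA members.

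Cell mix moved with condition too. Goblet markers summed to 6439 CPM in germ-free and 1704 CPM in antibiotic cells, stem markers (10 genes) to 631 CPM in germ-free and 353 CPM in antibiotic cells and colonocyte markers (14 genes) to 10866 CPM in germ-free and 18049 CPM in antibiotic cells. Mitochondrial genes held 18.7% of germ-free and 12.4% of antibiotic UMI. With classes weighted equally the log2 ratio of Hoxb13 was -0.06 and that of Hoxb2 to Hoxb8 0.89, against 0.35 and 0.14 as summed, so the sign for Hoxb13 changed with the class weighting. By paralog group, 13 stood at 139 CPM in germ-free and 105 CPM in antibiotic cells, 9 at 73.5 CPM in germ-free and 80.1 CPM in antibiotic cells, 6 at 49.0 CPM in germ-free and 44.1 CPM in antibiotic cells and 3 at 46.1 CPM in germ-free and 39.1 CPM in antibiotic cells. Groups 2 and 12 stood at or under 1.93 CPM in both conditions.

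Most measured regulators of Hox genes were not called between distal and proximal cells. Of 23 measured regulators, which include the Cdx genes and chromatin factors, 3 were called higher and 3 lower in distal germ-free cells, where 8.29% and 7.55% of all genes were, and 0 higher and 1 lower in distal antibiotic cells, where 2.99% and 3.74% of all genes were. The 1 called lower in antibiotic cells was Cdx2, a homeobox gene that specifies intestine. Cdx2 was at 38.6 CPM in distal and 80.8 CPM in proximal germ-free cells (log2 -1.05), and at 29 CPM in distal and 79.3 CPM in proximal antibiotic cells (-1.42). Cdx1 was at 128 CPM in distal and 139.7 CPM in proximal antibiotic cells. The germ-free counts of called regulators are larger shares than those of all genes. Of these calls, the ratio intervals of Men1 (0.784 to 22.7), Ring1 (0.0391 to 1.72) and Cbx8 (from 0.345 up) held 1. Those of Wdr5, Rarg and Cdx2 did not. Of 5 measured cofactors, homeodomain partners of Hox proteins, 1 was called higher in distal germ-free cells and 0 in either direction in distal antibiotic cells. Among 5 measured non-coding genes of the clusters 1 was called higher and 1 lower in distal germ-free cells, and 3 higher and 0 lower in distal antibiotic cells, counts too small to set against the shares of all genes. Hotairm1 was at 1.54 CPM in distal and 5.05 CPM in proximal germ-free cells, and at 6.32 CPM in distal and 2.58 CPM in proximal antibiotic cells, in opposite directions, with a germ-free ratio of 0.306 (0.00665 to 2.52) that spans 1. Hoxa11os was at 38.6 CPM in distal and 32.8 CPM in proximal germ-free cells, below 2-fold, and at 83.3 CPM in distal and 30.8 CPM in proximal antibiotic cells. Hottip is transcribed from the posterior end of HoxA and was at 20.1 CPM in distal and 3.37 CPM in proximal germ-free cells, and at 11.8 CPM in distal and 4.07 CPM in proximal antibiotic cells (2.89, 2.08 to 4.0). Between conditions Hoxaas3 was the member of that list that was called, at 26.8 CPM in germ-free and 7.99 CPM in antibiotic cells.

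Over 20 sums of at least 30 cells by cell set and class, the genes whose log2 level correlated best with Hoxb13 were Skap2 (Pearson's r 0.906), Nt5c (0.900) and S100a16 (0.899). Those most like Hoxb9 were Sfi1 (0.912), Pwwp3a and Xxylt1 (0.906 each), and those most like Hoxb6 were Cyp4f40 (0.819), mt-Nd5 (0.792) and Cdc42bpa (0.782). Bscl2 (0.858), Ssna1 (0.848) and Zbtb38 (0.833) were most like Hoxa3. These sums share libraries and cells, and the values are given as a description.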

How the data were processed

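Single-cell RNA was measured in 5 cDNA libraries of the 13 labelled, and the other 8 held sample barcodes and were not used. The authors deposited 1 matrix of natural log values, ln(1 + UMI per 10000 UMI of the cell), for 32285 genes and 4183 cells. Cell Ranger 7.0.0, kallisto and bustools with build mm10 are named, per the submitters' processing notes; annotation, strand use and cell filters are not stated there. Whole UMI counts were recovered from the deposited log values for 100% of 9481333 nonzero values (tolerance 0.01). Summed UMI gave CPM; log2 ratios used CPM + 1, and 3 counts set the limit for a count of 0. Intervals were Poisson for levels, conditional binomial for ratios and Clopper-Pearson for shares.

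Cells were clustered on 2000 variable genes, 30 components and 15 neighbours (Leiden resolution 1, Scanpy 1.11.5) and named "-like" from marker lists, so class names are rebuilt. A doublet caller marked 17 of 4183 cells, which were kept. Gene positions came from GENCODE on mm10 and promoter sequences from RefSeq GRCm38.p6. The members and lists were chosen with earlier results of these data known. Named members were the 16 with at least 100 UMI. Sums and ratios were checked on simulated data. Python 3.11.15, NumPy 2.4.6, SciPy 1.17.1 and pandas 2.3.3 were used. Alternatives covered depth, filters, thinning, per-cell means, doublets, class weighting, scaling, regional rules, clustering and each set left out; those on barcodes, on cluster 3 and on crypt-like cells within a region were chosen after seeing the data. Some single genes are not reported here.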

Additional observations from a re-analysis of the deposited data

How the results depend on the processing

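Counts of called members depended on the settings to different degrees. For distal over proximal germ-free cells, 3 members were called lower, 8 with cells thinned to 1000 UMI, 6 with means of per-cell CPM, 5 with equal class shares, 6 when distal cells had to lack Cyp2c55 and 3 to 6 with a set left out. Of the 4 called higher there, Hoxa13 and Hoxd11 were lost with thinned cells and without germ-free set 4, and Hoxd11 with means of per-cell CPM. The log2 ratio of Hoxa13 was 0.07 without germ-free set 4, against 1.57, and the set 3 levels behind the 0.07 were under 3 counts. For antibiotic cells, 4 were called higher, 9 when proximal cells needed at least 3 Cyp2c55 UMI and 7 when distal cells had to lack Cyp2c55; with equal class shares 3 were called higher, Hoxa13 (0.34) being lost, and 5 lower, Hoxb8 (-0.66) being lost. Between conditions, 0 to 1 were called higher and 0 to 4 lower with a set left out: Hoxb8 was called higher without germ-free set 3, and Hoxd13 higher and Hoxb3, Hoxb5, Hoxb7 and Hoxb8 lower without germ-free set 4. In crypt-like over colonocyte-like cells 0 were called lower, 1 with the stricter cell filter, 1 with antibiotic cells alone and 0 to 2 with a set left out.

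The goblet-like comparison was the least stable. The 2 members called higher became 0 without mitochondrial genes, with per-cell means, without doublets or with germ-free cells alone, 1 with thinned cells, 5 with antibiotic cells alone or with Leiden resolution 0.5, and 1 to 2 with a set left out. The 0 called lower became 3 without mitochondrial genes, with thinning, with per-cell means or with germ-free cells alone, 5 with the stricter filter, 4 with Leiden resolution 0.5, 1 without doublets, with antibiotic cells alone, with 1 cell per barcode or with shared barcodes left out, and 0 to 3 with a set left out. Hoxa5 in goblet-like and Hoxd11 in crypt-like cells changed sign when thinned (-1.21 and -1.41), and with cluster 3 left out of the crypt-like class Hoxb13 (-0.34) and Hoxd11 (-0.55) changed sign there. In germ-free distal over proximal cells Hoxd11 (-3.43) and Hoxb6 (0.48, against -1.70 without germ-free set 3) changed sign without germ-free set 4. Only set 3 is then left, where 3 counts correspond to 61.9 CPM in distal and 29.4 CPM in proximal cells, so these values rest on few UMI. Hoxb4 changed sign with equal class shares (0.02). The cause of these changes was not tested.

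No paired analysis was possible because each condition was 1 pool with no test and the numbers in the cell names are not tied to shared animals. Depth limits germ-free set 3, where 3 counts correspond to 7.44 CPM, and the 12 members under 100 UMI.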
